A study of Mus musculus with 2 samples.

Results

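Integrins, selectins and the adhesion molecules that partner them were followed as 37 genes among the 19505 genes named on the arrays. A gene was a member when its symbol in the platform annotation named an integrin α or β chain, an ICAM or a selectin, or was Selplg, Vcam1, Pecam1, Cd44, F11r, Jam2 or Jam3. The rule used symbols and no measured values, although it was chosen with earlier results of these data known. Each of the 37 genes has 1 probe set.

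RNA came from innate lymphoid cell (ILC) progenitors sorted by flow cytometry as lineage-negative, CD127+ cells with intermediate c-Kit and Sca-1 that carry the integrin α4β7. One sample came from wild-type littermates (genotype label Wild-type) and the other from Yeats4 deletion mice (genotype label Yeats4 knockout), with 1 array each. The labels used here name no strain, age, Cre line or number of pooled mice. Yeats4 encodes a reader of acetylated histones that is a subunit of chromatin remodelling complexes. With 1 array per genotype no difference has a replicate check, no test was possible, and every statement below compares these 2 arrays.

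Integrins are pairs of an α and a β chain that join the cell surface to matrix or to other cells, and they bind firmly only after a signal inside the cell has changed their shape. Selectins make the brief, sugar-dependent contacts that let a leukocyte roll, and immunoglobulin superfamily molecules such as Vcam1 and the ICAMs are the counter-receptors that integrins then grip. In bone marrow the α4 integrins and Vcam1 hold progenitors to stromal cells and macrophages, and α4β7 is also the gut-homing integrin of lymphocytes.

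Yeats4 itself differed by -0.06 on the log2 scale, from 5.96 (wild type) to 5.90. Whether its probes cover the deleted sequence is not known, so this transcript value is no check of the genotype, and the mutant array is named by its label below. Across the 2 arrays the medians of all probe sets were 2.91 and 2.87. The genes of the gate were read on both arrays, with Il7r, which encodes CD127, at 7.07 (wild type) and 6.38 (labelled knockout) and Kit at 7.12 and 7.77. In what follows the value of the wild-type array always comes first. Marker genes of other blood cells were also measured. Of the 14 T cell genes, 13 were past the level filter and 12 of these read lower. The T cell list summed to 886 linear units in wild type and 332 in the other. Each unit is 2 to the power of the log2 value. The B cell list (10 of 10 lower) summed to 1417 and 776, and the eosinophil list (4 of 6 lower) to 1973 and 693. Sums were 511 and 769 for the macrophage list (10 of 10 higher) and 11284 and 12648 for the neutrophil list (7 of 11 lower). Beside these counts, 41.0% of all genes past the level filter read lower. Of the T cell, B cell and eosinophil genes past 2-fold as measured, those read above the negative control level (defined below) on both arrays were Cd3e (4.30-fold lower) and Cd28 (2.27-fold) in the T cell list, Igll1 (2.24-fold) and Vpreb3 (2.03-fold) in the B cell list, and Ear6 (3.43-fold), Epx (2.96-fold) and Prg2 (2.79-fold) in the eosinophil list. For genes whose knockout value was under that level a lower limit is given: Cd8b1 and Cd8a were both at least 3.57-fold lower, Cd3g at least 2.02-fold, Cd3d and Cd6 at least 1.39-fold, Pax5 at least 1.79-fold, Vpreb1 at least 1.51-fold, Blk at least 1.28-fold, Alox15 at least 2.94-fold and the NK cell gene Eomes at least 1.24-fold lower. Themis was near background on both arrays. In the eosinophil list the 2 genes past the level filter that read higher were Ccr3 and Siglecf. Ccr3 (4.02 and 4.98, wild type under the control level) was at least 1.13-fold higher, and Siglecf, near background, was at 0.14. The other lists of blood cells held no gene past 2-fold besides 2 of the macrophage list. The neutrophil genes Ctsg (0.72), Prtn3 (0.55) and Ltf (-0.55) differed most in their list. In a sorted bulk sample fewer cells of a type and less RNA per cell cannot be told apart. Whether other cells or the sorted progenitors themselves were the source of these transcripts was not tested.

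Among the adhesion genes above the background of the array, Vcam1 had the largest difference (0.97 higher on the array labelled knockout, log2), and Itgal (-0.45), Itgam (-0.42) and Itgb6 (-0.41) were the lowest. The level filter, which asks that the 2-array mean reach the median probe set value (2.88, log2), was passed by 24 of the 37 members. Of these 24, 1 was at least 2-fold higher on the array labelled knockout, against 1.56% of the 10881 genes past the filter. None was 2-fold lower, against 0.781% of those genes. At 1.5-fold, 3 members were higher (Itga5, Vcam1 and Itgad), against 9.16% of genes, and none was lower, against 5.16%. In all, 11 of the 24 had a difference below 0, against 41.0% of the genes past the filter. The 1 member past 2-fold, Itga5, read under the negative control level on both arrays. That level is the 95th percentile of the 5222 negative control probe sets, 4.80 for wild type and 4.73 for the array labelled knockout, and a gene under it on both arrays is called near background.

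Above that level on both arrays were 16 members, and the other 21 were near background. Among the 16, 8 were lower and 8 higher on the array labelled knockout, with a median difference of 0.00 on the log2 scale. Among all 6261 genes above the level on at least 1 array, 33.3% were lower and the median difference was 0.15. The median size of a difference, sign ignored, was 0.19 for the 16 members and 0.25 for those genes. None of the 16 was 2-fold higher (background 1.31%) or 2-fold lower (background 0.735%), 1, Vcam1, was at least 1.5-fold higher (background 9.39%) and none was 1.5-fold lower (background 2.73%). These shares describe the members and set nothing apart about them.

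**Figure D1:**
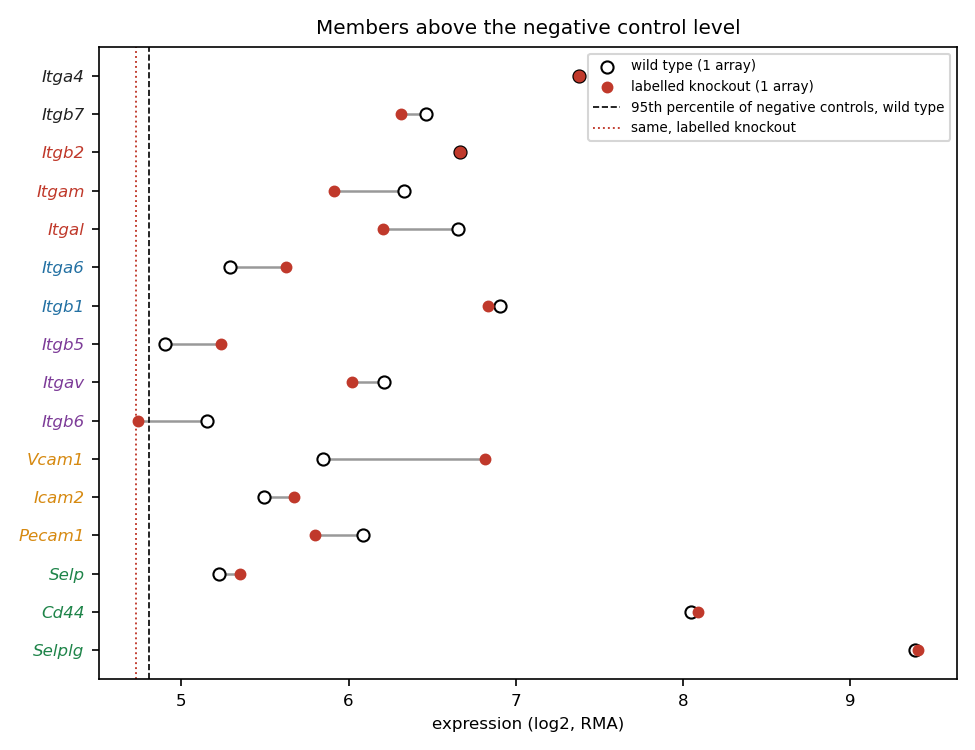
Each row is a member above the negative control level, with its RMA value (log2) as an open circle for wild type and a filled circle for the array labelled knockout; name colours mark the role groups and vertical lines the negative control level of each array. Vcam1 has the widest gap (5.84 and 6.81), while the circles of Itga4, Itgb2, Cd44 and Selplg nearly coincide.

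The gate pair, Itga4 and Itgb7, encode the α and β chains of the integrin on which the cells were sorted. Itga4 read 7.38 on both arrays, a difference of 0.00 that became -0.14 after a loess correction for level. Itgb7 read 6.46 and 6.32, a difference of -0.14. The local spread, the scaled median absolute deviation of the differences of the 500 genes nearest in level, was 0.25 for Itga4 and 0.30 for Itgb7, and the medians of those neighbours were 0.16 and 0.20. Counted from these medians, Itga4 lay at -0.62 and Itgb7 at -1.14 local spreads, and Itgb7 was at -0.30 after the loess correction. The sort selects on these proteins, so the transcripts of this pair are not independent of the gate. Itgb1, the other β chain that pairs with α4, read 6.90 and 6.83, a difference of -0.07 with a local spread of 0.27.

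The leukocyte integrins built on the β2 chain were split between a common β chain that read alike and 2 α chains that read lower on the array labelled knockout. Itgb2, the β chain shared by all leukocyte β2 integrins, read 6.66 on both arrays. Itgal, the α chain of LFA-1, which binds ICAMs, read 6.65 and 6.20, a difference of -0.45 (1.36-fold lower, local spread 0.30). Itgam, the α chain of Mac-1, which myeloid cells use to bind fibrinogen and complement fragments, read 6.33 and 5.91, a difference of -0.42 (1.34-fold lower, local spread 0.32). Of the 500 genes nearest in level, 15 were as low as Itgal and 23 as low as Itgam. The difference of the α chain minus that of Itgb2 was -0.45 for Itgal and -0.42 for Itgam. T cells are rich in Itgal, and neutrophils and eosinophils in Itgam. The T cell (886 against 332) and eosinophil (1973 against 693) sums were lower on the array labelled knockout too. The neutrophil sum (11284 against 12648) and the macrophage sum (511 against 769) were higher. Within the neutrophil list 4 genes read higher: Ctsg (0.72), Prtn3 (0.55), Elane (0.34) and Mpo (0.25). The other 7 read lower, from -0.02 (S100a8) to -0.55 (Ltf). The part of other cells in these differences was not tested.

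The remaining α chains of this group were near background. Itgax, the CD11c chain of dendritic cells, read 3.20 and 3.69, and Itgad, the CD11d chain found on macrophages of the spleen, read 3.21 and 4.17. Itgae, which pairs with β7 on gut lymphocytes, read 1.19 and 0.95. Itgam, Itgax and Itgad follow each other on chromosome 7 with no protein-coding gene between them in the reference annotation. Their differences of -0.42, 0.49 and 0.97 did not share a sign, although the levels of the last pair were near background.

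**Figure D2:**
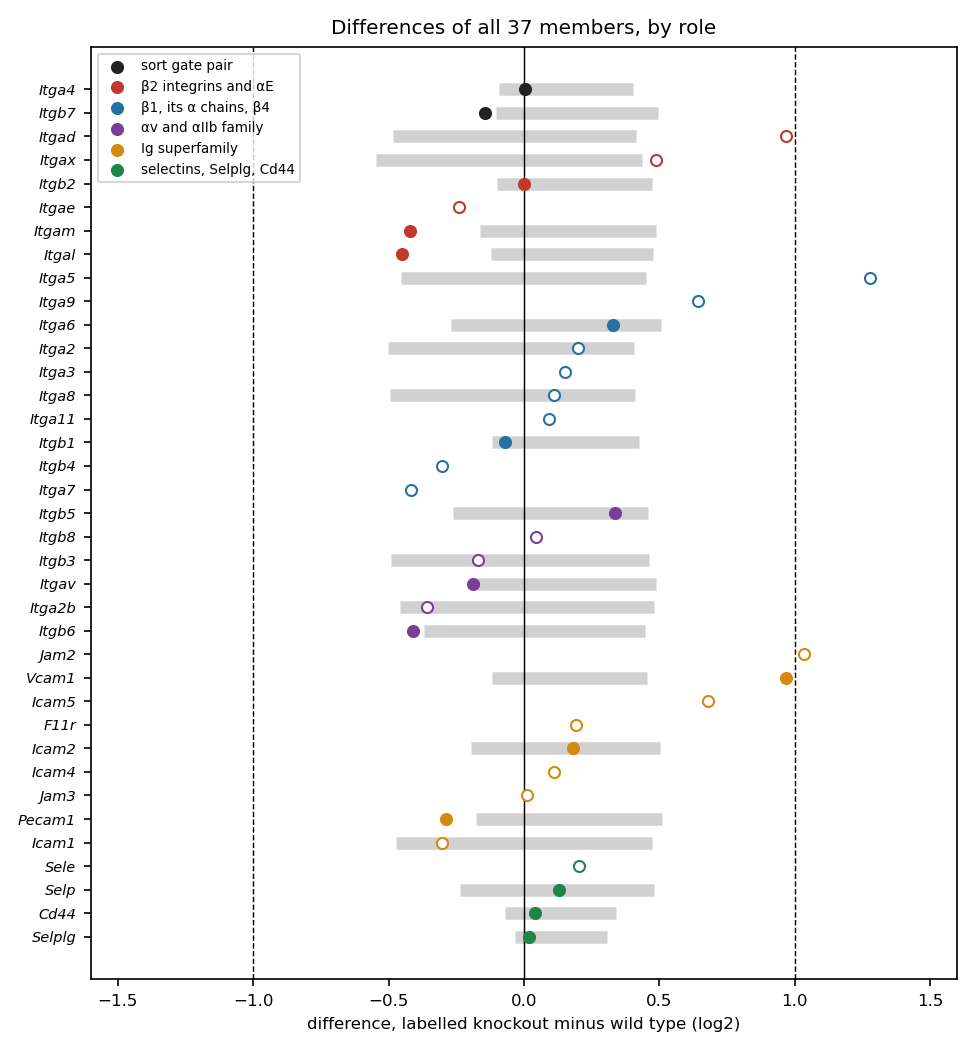
Points give the difference of each of the 37 members (log2, array labelled knockout minus wild type), ordered by role group, filled when above the negative control level and open when near background. Grey bars span 1 local spread on either side of the median of the 500 genes nearest in level, drawn for the 24 members past the level filter; dashed lines mark 2-fold. Vcam1 (0.97) is the filled point farthest from its bar, and the points beyond 1, Itga5 and Jam2, are open.

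The β1 family holds the receptors for matrix. Of its 10 members, including the hemidesmosome chain Itgb4, Itgb1 and Itga6 were above the negative control level. Itga6, a laminin receptor chain carried by many blood progenitors, read 5.29 and 5.62, a difference of 0.33 (1.26-fold higher) that did not exceed its local spread of 0.39. Itga5, the chain of the classical fibronectin receptor, read 2.57 and 3.85. Its difference of 1.28 was the largest of all members, but neither value reached the negative control level, so no fold is given. Itga2, Itga3, Itga7, Itga8, Itga9, Itga11 and Itgb4 were near background too, with differences from -0.42 (Itga7) to 0.64 (Itga9).

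In the αv and αIIb family, which binds proteins with an RGD motif and activates latent TGF-β, the 3 genes above the negative control level did not share a direction. Itgav, the common α chain, read 6.21 and 6.02, a difference of -0.19 (local spread 0.33). Itgb5 read 4.90 and 5.24, a difference of 0.33 (local spread 0.36). Itgb6, known from epithelia, read 5.15 and 4.74, a difference of -0.41 that matched its local spread of 0.41, and its value on the array labelled knockout lay just above the control level of 4.73. The platelet pair Itga2b (4.34 and 3.98) and Itgb3 (4.40 and 4.23) was near background on both arrays, as was Itgb8 (2.50 and 2.54). In the megakaryocyte list 1 of 7 measured genes was above the control level on either array, and the list summed to 86.3 and 87.0 linear units.

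Vcam1, the counter-receptor of α4 integrins, read 5.84 for wild type and 6.81 for the array labelled knockout. It was 1.96-fold higher, a log2 difference of 0.97 where the local spread was 0.29. It was the only member at least 3 local spreads above 0, as were 0.698% of the genes past the filter, and no member lay that far below 0, where 0.414% did. Counted from the median of its neighbours (0.17), Vcam1 lay 2.78 local spreads above and Itga5 2.83, so that no member was 3 spreads away in either direction, against 0.432% of genes upwards and 0.524% downwards. Of the 500 genes nearest in level, 6 were as high as Vcam1. The difference fell from 0.97 to 0.88 after centring, 0.81 after the loess correction and 0.84 after quantile normalization. As measured, Vcam1 stood just inside the 2-fold limit and is therefore not among the genes counted as 2-fold higher.

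Marrow macrophages and endothelium are known sources of Vcam1, and the marker lists of both were read beside it. No list of stromal cell markers was read. All 10 macrophage markers were higher on the array labelled knockout as measured, with a median difference of 0.72. Among all genes past the level filter, 41.0% read lower. Of the 10 markers, 7 were above the negative control level. Their differences ran from 0.24 (Csf1r) to 1.14 (Axl), with a median of 0.585. For all genes above that level on at least 1 array the median was 0.15. Cd5l, a secreted macrophage protein, was near background at 2.80 and 4.39. Axl, a receptor for dying cells, read 4.98 and 6.12, and the complement gene C1qc read 5.17 and 6.03. Adgre1, which encodes F4/80, and Mertk were also near background. Of the 7 endothelial markers measured, Esam was above the control level (5.75 and 5.52) and the other 6, among them Cdh5, Kdr, Tek and Tie1, were near background. The endothelial list summed to 92.1 and 87.0 linear units. The part of macrophage, endothelial or stromal RNA in the Vcam1 difference was not tested.

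The other immunoglobulin superfamily members above the negative control level differed less than Vcam1. Pecam1, which joins endothelial cells and is also carried by leukocytes and progenitors, read 6.08 and 5.80, a difference of -0.29 (local spread 0.34). Icam2, a ligand of LFA-1, read 5.49 and 5.68, a difference of 0.18 (local spread 0.35). Icam1, the inducible LFA-1 ligand, read 4.36 and 4.05 and was near background. Icam4, Icam5, F11r, Jam2 and Jam3 were below the level filter, with differences from 0.01 (Jam3) to 1.03 (Jam2). The neighbours Icam1, Icam4 and Icam5, which follow each other on chromosome 9, had differences of -0.30, 0.11 and 0.68, all near background.

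The molecules of rolling and of hyaluronan binding differed little. Selplg, which encodes PSGL-1, the main selectin ligand of leukocytes, read 9.39 and 9.40, a difference of 0.02 (local spread 0.17). Cd44, the hyaluronan receptor, read 8.05 and 8.09, a difference of 0.04 (local spread 0.21). Both signs turned with the loess correction, to -0.11 and -0.10. Selp, the selectin of platelets and endothelium, read 5.22 and 5.35, a difference of 0.13 (local spread 0.36). Sele, the endothelial selectin, was near background at 1.52 and 1.72.

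**Figure D3:**
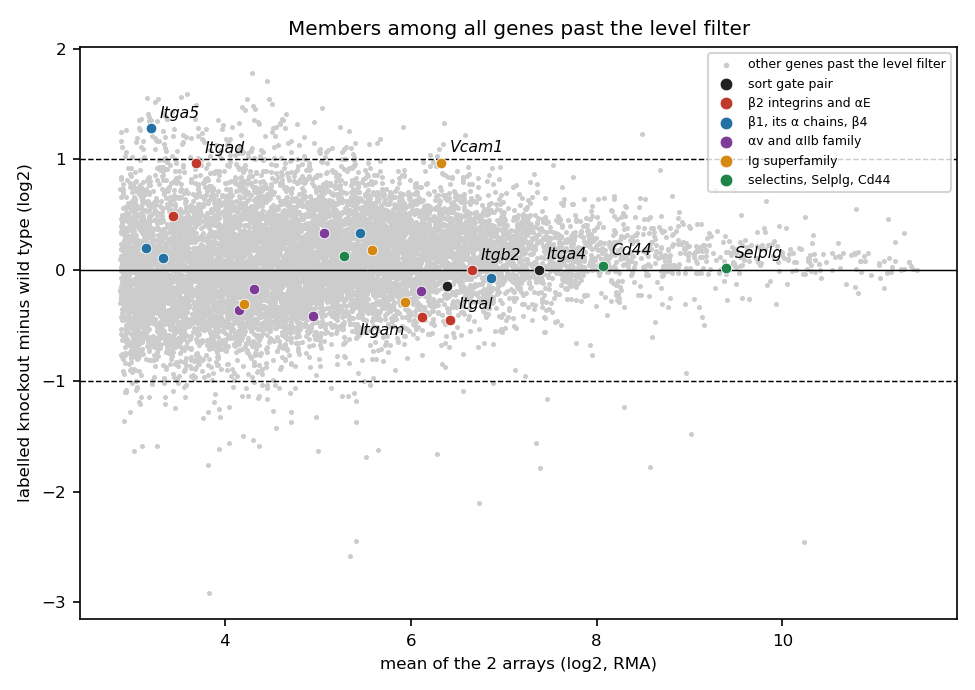
The difference (log2, array labelled knockout minus wild type) is plotted against the mean of the 2 arrays for the 10881 genes past the level filter, with the 24 members past it in colour. Members lie within the cloud of other genes; Vcam1 lies at its upper edge near a mean of 6.33, and the scatter narrows with level.

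The machinery that loads and anchors integrins was read from lists, each set beside the shares of all genes past the filter that were 2-fold higher (1.56%) or lower (0.781%). Of 20 genes of integrin activation (talins, kindlins, Rap1 and its partners), 17 passed the filter. Their median difference was -0.01, against 0.08 for all genes past the filter. None was 2-fold higher and 1 was 2-fold lower: Skap1, an adaptor of T cell adhesion, near background at 4.46 and 3.34. Next in size were Cytip (-0.66), a cytohesin-binding brake on LFA-1, and Rassf5 (-0.53), the Rap1 effector RAPL. Lymphocytes express Skap1, Cytip and Rassf5; T cell markers also read lower (median difference -1.18), and their part here was not tested.

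Adhesion complex and outside-in signalling genes had 18 members past the filter, a median of 0.08 and no 2-fold difference. The actin cross-linker Actn1 (0.73) and vinculin, Vcl (0.57), were highest; both were under the control level in wild type and were thus at least 1.56-fold and 1.36-fold higher. Fyn, a Src family kinase, was lowest at -0.60 (6.68 and 6.08). The median of this list turned to -0.08 after the loess correction.

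Tetraspanins and integrin-associated proteins (16 genes) had a median of 0.02, which was -0.08 after the loess correction, with 1 gene 2-fold higher and none lower. That gene, Tspan4, read 3.46, under the control level, and 5.01, and was at least 1.15-fold higher. Cd151, the partner of laminin-binding integrins, was near background (3.22 and 4.13), and Cd63 was at 0.45.

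Genes that build or carry selectin ligands had 13 members past the filter and a median of 0.22, which was 0.08 after the loess correction. St3gal6, a sialyltransferase of the sialyl-Lewis x structure that selectins recognise, read 6.001 and 4.996 and was 2.01-fold lower (-1.005, local spread 0.36). Fut7, the fucosyltransferase of the same structure, read 5.33 and 5.75, and the sulfotransferase Chst2, near background, was at -0.59. Of the 13 genes, 1 was 2-fold lower (St3gal6) and none was 2-fold higher.

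Integrin ligands and matrix genes had 11 members past the filter and a median of -0.29. Of the 11, 2 were 2-fold lower and none higher: Col1a2, near background, at -1.08, and Thbs1, a platelet and matrix glycoprotein, which read 4.92 and 3.88, the second value below the control level, and was at least 1.08-fold lower. Tnc, near background, was at 0.79. Hyaluronan and Cd44 partner genes had 8 members past the filter and a median of 0.13, which was -0.01 after the loess correction, with 1 of them 2-fold higher as measured and none lower. That gene, Hmmr, a hyaluronan receptor that also acts on the mitotic spindle, read 4.01, under the control level, and 5.29, and was at least 1.40-fold higher. The membrane-cytoskeleton linkers Nf2 (0.58, with wild type under the control level) and Rdx (0.49) followed.

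**Figure D4:**
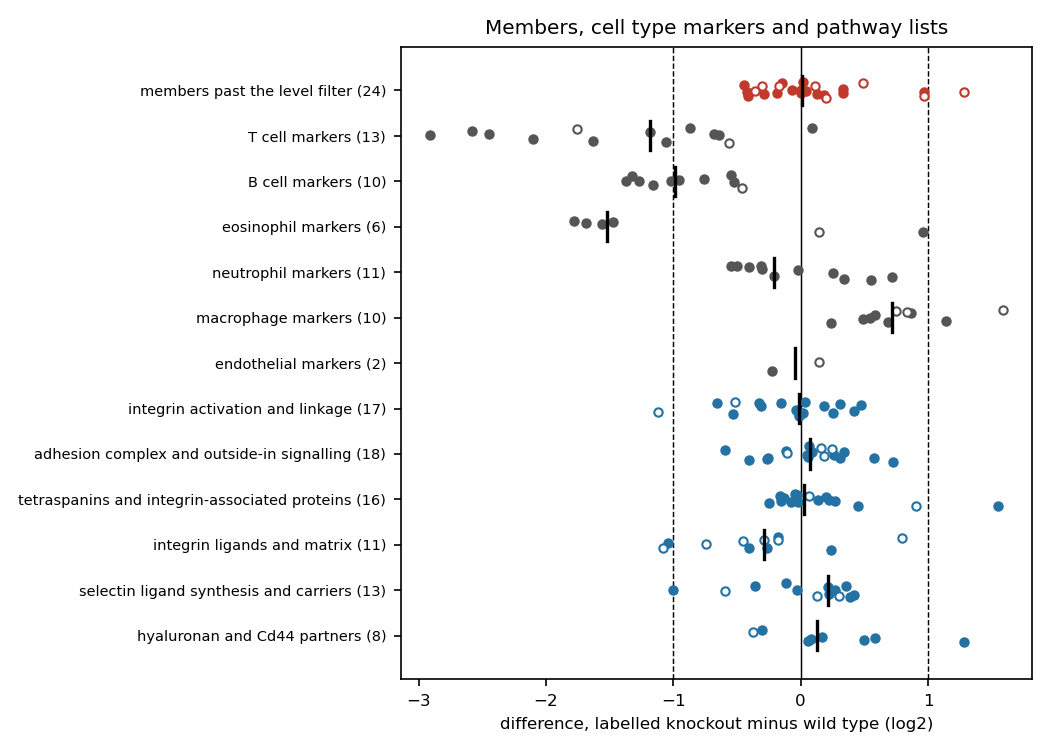
Points are differences of single genes past the level filter (log2, array labelled knockout minus wild type) for the members, 6 cell type marker lists and 6 pathway lists, with the number of genes in brackets; open points are near background and vertical bars are medians. The members centre near 0 (median 0.01), the T cell list reaches down to -2.92 (median -1.18) and the macrophage list above 0 (median 0.72). The point at -2.92 is Cd3d, whose value on the array labelled knockout was under the negative control level.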

How the data were processed

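The authors deposited 1 log2 expression value per probe set and array, made with Affymetrix Power Tools and RMA per the submitters' processing notes. RMA corrects background, applies quantile normalization and summarises probes, which hides any shift in RNA content common to all genes. Tool versions and the genome build: not given in the sources used here. Probe set names are of a different Affymetrix mouse design from the Mouse Gene 2.0 array of the design text, and gene names rest on the annotation of that design. RefSeq's gene table (GRCm38.p6) held all 37 member identifiers and gave gene order only.

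Of 29129 probe sets, 19572 have 1 gene symbol, none has several and 9557 have none. For genes with several probe sets the one of highest mean was used. Differences are the array labelled knockout minus wild type, uncentred. Linear sums add 2 to the power of each log2 value over a list's measured genes. A fold against an array under the control level is given as a lower limit, against 4.80. With 1 array per genotype there is no test, and the number of arrays limits the precision. Code was checked on simulated data.

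The members, lists and naming rule (every member above the control level, and in each pathway list the genes past 2-fold and the 3 largest differences) were chosen with earlier results of these data known. For the cell type marker lists, which serve as context, the rule was kept in part: genes past 2-fold or of largest difference are examples. Computations used Python 3.11.15, numpy 2.4.6, pandas 2.3.3, statsmodels 0.14.6 and matplotlib 3.10.9.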

Additional observations from a re-analysis of the deposited data

How the results depend on the processing

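No paired analysis was possible because each genotype has 1 array, and leaving out an array leaves no comparison. No member was 2-fold lower under any of the 12 alternatives to that count. The count of members 2-fold higher, 1 as reported, was 2 with no level filter (Itga5 and Jam2), 3 at a 1.5-fold threshold (Itga5, Vcam1 and Itgad) and 0 with the 75th percentile filter (4.84), the negative control filter (4.75), values raised to the negative control level, or only genes above that level, the last chosen after seeing the data. With a threshold of 3 local spreads it was 1, which was Vcam1 in place of Itga5, and 0 when the spreads were counted from the local median, also chosen after seeing the data. The members' median difference (0.01) ranged from -0.13 after the loess correction (span 0.3) to 0.04 with no filter. Of the 16 members above the control level, 13 kept their sign under centring, loess correction and quantile normalization; Itga4, Cd44 and Selplg did not. All 37 members have 1 probe set, so averaging probe sets left their values as they were. Signal near background limits 21 of the 37 members.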

Other observations

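Adhesion receptors outside the integrins and selectins, in 2 lists written after the data were examined, were read as well; the genes named are examples chosen after their values were seen. Of 9 measured CD2 and SLAM family receptors, which pair between blood cells, 7 read lower on the array labelled knockout and none higher, with a median difference of -0.30; of all genes past the level filter 41.0% read lower. The 5 above the negative control level had a median of -0.07, and the other 4 were near background. Slamf6, a receptor of lymphocytes, read 6.36 and 5.57, a difference of -0.79, and Cd2, near background, read 3.93 and 2.78. Cd48, the broadly expressed ligand of Cd244a, read 6.41 and 6.38.

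Of 8 other immunoglobulin adhesion molecules past the level filter, 6 were lower and 2 higher. Of the 6 above the negative control level on an array, 4 were lower, with a median of -0.12; among all such genes 33.3% were lower. Thy1, a glycolipid-anchored protein of T cells and some progenitors, read 7.11 and 5.45, a difference of -1.66. L1cam, near background, was at -1.61. The 2 higher genes were Alcam, the ligand of CD6, at 5.88 and 6.47, and Ncam1, at 5.30 and 5.87. T cells carry Thy1, Cd2 and Slamf6, and T cell markers differed by a median of -1.18; their part in these values was not tested.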
